A study of Mus musculus with 6 samples.

Results

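Ceramide and sphingolipid metabolism outside the lysosome was followed through 43 genes in the retinal pigment epithelium (RPE), the pigmented cell layer behind the photoreceptors that ingests their shed outer segments. The genes were chosen by name, as the enzymes, regulators and transporters that build ceramide, turn it into sphingomyelin and glycolipids, break these down away from the lysosome and handle sphingosine 1-phosphate. All 43 were found, each once, among the 54532 genes of the deposited count table. RNA came from 3 Abca4KO mice (genotype Abca4-/-, the Jackson line Abca4tm1Ght/J) and 3 WT mice (Jackson, 129S1/SvlmJ). Mice of both groups carried the Leu450 form of Rpe65, were kept on a standard diet with 12-h cyclic light, and were sampled 5 h after light onset. Line and genotype changed together, so an effect of the Abca4 allele and an effect of the line cannot be told apart. Age and sex are not given in the sources used here. In bulk tissue, fewer cells of a type and less RNA per cell cannot be told apart.

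Sphingolipids are built on a long-chain base that serine palmitoyltransferase makes from serine and a fatty acyl-CoA at the endoplasmic reticulum. A reductase, a ceramide synthase and a desaturase turn this base into ceramide, which moves to the Golgi and becomes sphingomyelin or glucosylceramide, the root of the gangliosides. Ceramidases release sphingosine, which kinases convert to the signalling lipid sphingosine 1-phosphate. Photoreceptor outer segments are rich in lipid, and the RPE takes in their shed tips daily.

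The libraries held between 17047286 and 19841307 counts, and 3 counts, taken as the lower limit of detection, corresponded to 0.152 to 0.174 CPM (counts-per-million units on TMM-scaled library totals). Abca4 itself measured 32.6, 39.1 and 36.8 CPM in the Abca4KO libraries, against 955, 932 and 968 CPM in the WT libraries, so each library matched its label. Summed RPE markers (15 genes, all detected in every library) lay between 42062 and 44745 CPM in Abca4KO and between 36414 and 46045 CPM in WT. Libraries of 1 genotype differed in several gene lists. WT 2 had 2286 CPM of interferon response genes, against 202 to 295 CPM in the other 5, and Abca4KO 1 had 3599 CPM of rod markers, against 728 to 1902 CPM elsewhere. The mean sum was higher in Abca4KO for 10 of the 14 marker lists. Summed endothelial markers (15 of 15 with a positive log2 fold change) were 822 to 1223 CPM in Abca4KO and 504 to 830 CPM in WT, and mural cell markers (7 of 9 positive) 768 to 868 against 575 to 720 CPM. Rgs5 was the largest part of the mural cell sum, at 391, 397 and 433 CPM in Abca4KO, against 286, 316 and 190 CPM in WT. Acta2 and Pdgfrb, the next most abundant, had log2 fold changes of -0.01 and 0.004. Cspg4 of that list was lower in Abca4KO without overlap, and Rgs5 and Myh11 higher. Macrophage markers (10 of 14 positive) were 3074 to 5285 CPM in Abca4KO and 2018 to 3330 CPM in WT, and melanocyte markers (6 of 8 positive) 5102 to 6537 against 3559 to 5385 CPM. Lyz2 made most of the macrophage sum, at 2110, 3937 and 2957 CPM in Abca4KO, against 1660, 2002 and 1179 CPM in WT. Csf1r and P2ry12 of that list were lower in Abca4KO without overlap, and Cd68 and Lyz2 higher. Dct and Tyrp1 made most of the melanocyte sum. Kit of that list was lower in Abca4KO without overlap, Mlana, Dct and Pax3 were higher, and Sox10 had a log2 fold change of -0.03. Retinal neuron markers (7 of 10 positive) were 495 to 560 CPM in Abca4KO and 289 to 513 CPM in WT, and fibroblast and sclera markers (10 of 12 positive) 2167 to 2637 against 1913 to 2176 CPM. Most of the retinal neuron sum was a single gene, Trpm1, at 350, 433 and 399 CPM in Abca4KO, against 306, 177 and 350 CPM in WT. No gene of these 6 lists passed the test, only Grm6 was at 0 in a library, and their part in the results below was not tested.

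No sphingolipid gene passed the test for a difference between Abca4KO and WT. Of the 43 genes, 40 had enough counts to be tested (the other 3 were Sptlc3, Sptssb and Cers3), and 0 of the 40 had an adjusted p under 0.05 in edgeR's quasi-likelihood test, where 0.0461% of all 17340 tested genes did (0.0346% higher and 0.0115% lower in Abca4KO). DESeq2 and limma-voom also called 0 members. At an unadjusted p under 0.05 there were 3 (Sptssa, Sptlc2 and Sgms2), or 7.5% of the tested members against 7.02% of all tested genes, so the share was near the background. Sptssa was higher in Abca4KO, as 3.15% of all genes were at this p, and Sptlc2 and Sgms2 were lower, as 3.87% were. That number was 9 in limma-voom with sample weights (22.5%, against 16.9% of all genes), 10 without WT 2 (24.4%, against 10.7% of all genes) and 1 without Abca4KO 3 (2.38%, against 4.26% of all genes). The log2 fold changes, Abca4KO minus WT, were above 0 for 21 members and below 0 for 19, with a median of 0.01 beside -0.01 over all tested genes. Abca4KO and WT libraries were fully separated in 6 members, 15.0% of those tested, against 12.8% of all tested genes. Abca4KO was higher in 3 of these 6 (Sptssa, Sptlc1, St3gal5; 5.93% of all genes) and lower in 3 (Sptlc2, Sgms2, Smpd3; 6.85% of all genes).

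Precision differed widely between the members. The 95% interval of the log2 fold change lay inside a 1.5-fold change in either direction for 26 of the 40 tested members (65.0%), against 47.9% of all tested genes. The intervals of Ugt8a (-2.46 to 2.51), whose counts ran between 11 and 169 over the libraries, and of Sgpp2 (-1.20 to 2.89), which had 54 counts in all, were among the widest.

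**Figure D1:**
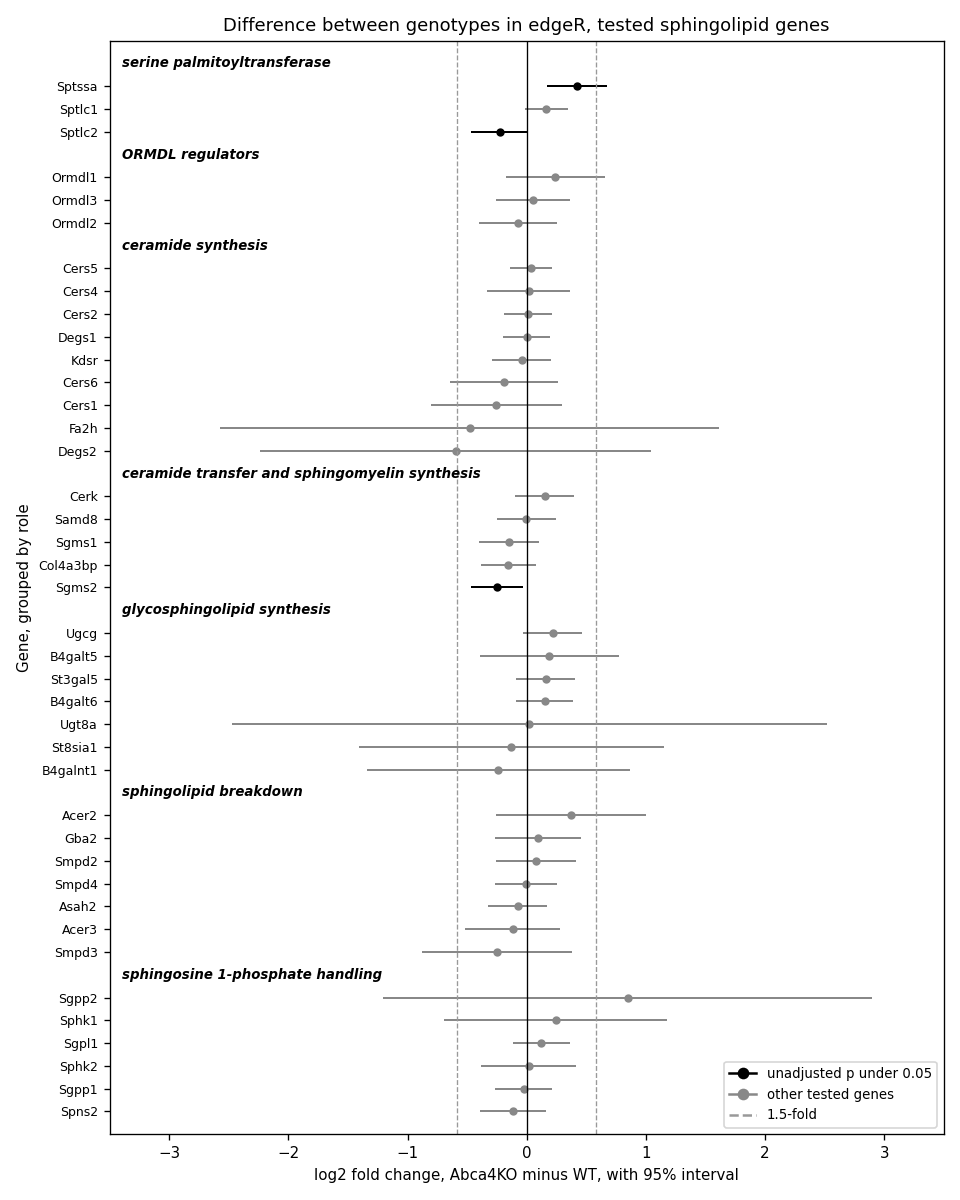
Log2 fold change (Abca4KO minus WT, x axis) with its 95% interval for the 40 tested genes, grouped by role down the page; dashed lines mark a 1.5-fold change. Intervals of 26 genes lie between the dashed lines, and black marks the 3 genes with an unadjusted p under 0.05.

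Serine palmitoyltransferase, which commits serine to sphingolipid synthesis, is built from Sptlc1, a catalytic partner (Sptlc2 or Sptlc3) and a small activating subunit (Sptssa or Sptssb). All 3 tested subunits had genotypes that did not overlap, where 12.8% of all tested genes did not. The 3 subunits did not go the same way, and none passed the test. Sptssa measured 81.0, 98.1 and 102.1 CPM in Abca4KO, against 73.5, 67.2 and 69.7 CPM in WT. Every Abca4KO library lay above every WT library, with Abca4KO 1 the nearest to them. The fold was 1.34 (95% interval 1.13 to 1.58; log2 fold change 0.42, SE 0.10), with an unadjusted p of 0.00458 and an adjusted p of 0.546 in edgeR. Sptssa was the member with the smallest p, and it kept an unadjusted p under 0.05 in each of the 15 other fits tried.

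Sptlc1, the subunit shared by every form of the enzyme, measured 109.5, 103.9 and 103.2 CPM in Abca4KO, against 94.9, 90.03 and 97.4 CPM in WT. The groups did not overlap, and the difference was small (log2 fold change 0.17, SE 0.07, adjusted p = 0.712 in edgeR). Sptlc2, which carries the catalytic lysine, measured 138.2, 122.2 and 133.7 CPM in Abca4KO, against 141.9, 147.9 and 172.0 CPM in WT. Here every Abca4KO library lay below every WT library, by little between Abca4KO 1 and WT 1 (log2 fold change -0.23, SE 0.10, adjusted p = 0.706 in edgeR). The value was -0.14 without WT 3, and the unadjusted p of Sptlc2 was under 0.05 in only 3 of the 15 other fits.

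A ratio of 2 genes within a library does not depend on how libraries are scaled. Per kb of gene length, Sptssa counts were 3.13, 4.29 and 4.08 times those of Sptlc2 in Abca4KO, and 2.77, 2.43 and 2.17 times in WT. For Sptlc1 over Sptlc2 the ratios were 1.81, 1.94 and 1.76 in Abca4KO and 1.53, 1.39 and 1.29 in WT. Neither ratio overlapped between the genotypes, which was fixed by the separation of each gene and adds no support of its own. Both were chosen after the values of their genes had been seen and are given without a test. As a share of the summed per-kb level of Sptlc1, Sptlc2 and Sptlc3, Sptlc2 took 35.3 ± 1.13% in Abca4KO and 41.7 ± 1.99% in WT (SD, n = 3 each). This share restates the ratio of Sptlc1 to Sptlc2.

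**Figure D2:**
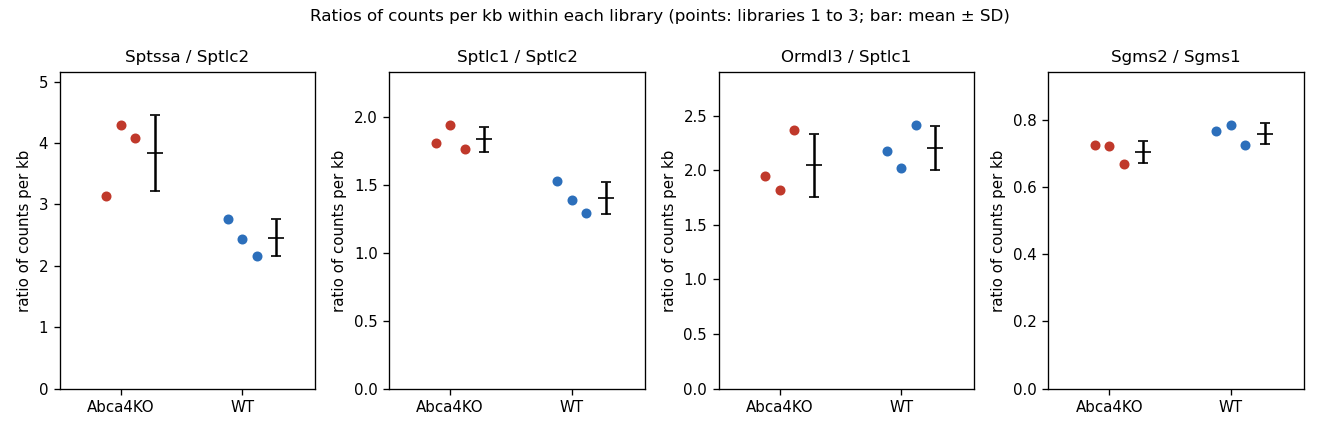
Ratios of counts per kb of gene length between 2 genes in the same library (y axis), for Abca4KO on the left and WT on the right of each panel; points are libraries and bars the mean ± SD. Sptssa/Sptlc2 and Sptlc1/Sptlc2 are higher in all 3 Abca4KO libraries, which the separation of each of their genes already fixes. Ormdl3/Sptlc1 overlaps, and Sgms2/Sgms1 is lower by a small margin.

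The stretches before the RefSeq starts (build GRCm38.p6) of these 3 subunit genes are shown because they are the tested genes of the first step and their libraries separated by genotype, though none passed the test. Each runs 5′ to 3′ on the minus strand and stops short of the gene bounds in the deposited table. Capitals mark the CCAAT box, read on either strand as CCAAT or ATTGG. The Sptssa window is chr12:54656574-54656822, that of Sptlc1 chr13:53377398-53377611 and that of Sptlc2 chr12:87388356-87388605.
Sptssa: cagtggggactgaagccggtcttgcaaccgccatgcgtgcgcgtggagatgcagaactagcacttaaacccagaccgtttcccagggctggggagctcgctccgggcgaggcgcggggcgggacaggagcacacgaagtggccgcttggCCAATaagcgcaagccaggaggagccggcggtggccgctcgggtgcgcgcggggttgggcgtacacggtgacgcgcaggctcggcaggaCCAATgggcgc
Sptlc1: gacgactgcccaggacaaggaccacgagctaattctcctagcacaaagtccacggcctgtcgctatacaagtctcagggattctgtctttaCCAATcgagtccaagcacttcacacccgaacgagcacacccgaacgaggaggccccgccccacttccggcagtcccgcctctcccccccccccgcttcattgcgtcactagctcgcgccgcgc
Sptlc2: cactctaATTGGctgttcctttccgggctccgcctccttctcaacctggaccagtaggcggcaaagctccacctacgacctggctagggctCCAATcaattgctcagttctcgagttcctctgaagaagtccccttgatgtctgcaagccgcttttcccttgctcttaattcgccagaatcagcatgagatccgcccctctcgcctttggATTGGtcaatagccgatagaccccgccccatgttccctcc

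Sptssa held 2 CCAAT boxes, which began 101 and 12 bases before the start, Sptlc1 held 1 at 159 bases and Sptlc2 held 3, at 243, 159 and 40 bases. GC content was 69.1% in the Sptssa window, 61.7% in that of Sptlc1 and 55.2% in that of Sptlc2. Over the 250 bases before the start, on both strands, a CCAAT box stood in 15 of the 39 members with a RefSeq promoter entry (38.5%) and in 37.5% of all 27025 genes with one. The GC box GGGCGG stood in 29 members (74.4%) and in 35.4% of all genes. CACGTG, the core of the CLEAR element through which TFEB is known to act, stood in 7 members (17.9%: Cers2, Cers6, Degs1, Sgms2, Smpd2, Sphk1 and Sgpp2) and in 6.86% of all genes, and in none of the 3 windows printed. None of the 3 motifs contains another, and a match is only a description of the letters. The 27025 genes outnumber the 17340 tested ones and were not matched to the members in level or GC content. These shares therefore show no trait particular to the members. No promoter entry was found for Smpd3, Fa2h, B4galnt1 and B4galt6 in the source used here.

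The alternative subunits were close to the detection limit. Sptlc3, whose enzyme makes bases of other chain lengths, had 0 counts in all 3 Abca4KO libraries and 0, 0 and 3 counts in WT. Sptssb, which widens the range of acyl chains used, had 3, 8 and 7 counts in Abca4KO and 19, 2 and 23 counts in WT. Sptlc1, Sptlc2 and Sptssa stood at 15.1 CPM per kb or more in every library, beside at most 0.686 CPM per kb of either alternative.

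**Figure D3:**
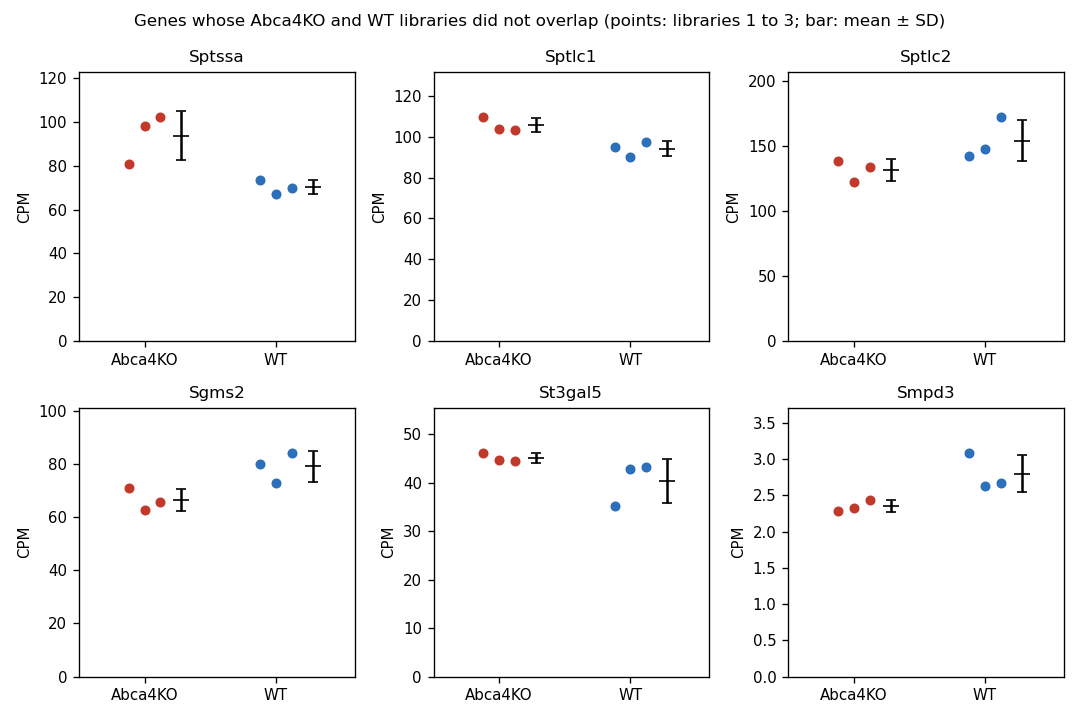
CPM (y axis) in the 3 Abca4KO and 3 WT libraries for the 6 genes whose genotypes did not overlap; points are libraries and bars the mean ± SD. Sptssa, Sptlc1 and St3gal5 are higher in Abca4KO and Sptlc2, Sgms2 and Smpd3 lower, and in each panel the gap between the nearest libraries is small beside the level.

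The ORMDL proteins sit on serine palmitoyltransferase and restrain it when ceramide is plentiful. Ormdl3 was the most abundant, at 131.1, 115.9 and 150.5 CPM in Abca4KO, against 127.1, 111.6 and 144.5 CPM in WT. The groups overlapped almost fully (log2 fold change 0.05, SE 0.13, adjusted p = 0.961 in edgeR). Per kb, Ormdl3 made up 81.3 ± 1.65% of the ORMDL level in Abca4KO and 81.3 ± 0.825% in WT (SD, n = 3 each). Ormdl1 averaged 26.1 ± 1.99 CPM in Abca4KO and 22.1 ± 5.09 CPM in WT, and Ormdl2 averaged 13.9 ± 0.605 CPM in Abca4KO and 14.6 ± 1.42 CPM in WT (SD, n = 3 each). Ormdl2 overlaps Dnajc14 and Sarnp on the opposite strand, which makes that count uncertain.

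The step with the highest level per kb was the last one on the way to ceramide. Degs1, the desaturase that places the double bond of ceramide, measured 622, 611 and 613 CPM in Abca4KO, against 575, 608 and 661 CPM in WT. The Abca4KO libraries lay within the WT range, and the 95% interval of the fold ran from 0.878 to 1.14 (log2 fold change 0.00, SE 0.08, adjusted p = 0.998 in edgeR). At 237.5 CPM per kb, Degs1 stood at percentile 99.3 of all tested genes. Kdsr, the reductase that precedes the ceramide synthases, averaged 155.3 ± 9.06 CPM in Abca4KO and 159.9 ± 18.5 CPM in WT (SD, n = 3 each).

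The 6 ceramide synthases differ in the acyl chain they attach. Cers2, which uses very long chains, held 54.1 ± 3.08% of the family's per-kb level in Abca4KO and 53.8 ± 0.851% in WT (SD, n = 3 each). Cers5, which makes ceramides with palmitoyl chains, followed with 23.3 ± 1.12% in Abca4KO and 22.8 ± 0.564% in WT. Cers4, which uses long chains, held 16.2 ± 2.13% in Abca4KO and 15.9 ± 1.92% in WT (SD, n = 3 each for both). This per-kb order, Cers2 over Cers5 over Cers4, was the same in all 6 libraries, and no share separated the genotypes. The order depends on the deposited gene length, 12264 bases for Cers4, against 3676 for Cers2 and 3542 for Cers5. In CPM, Cers4 averaged 217.7 ± 28.3 in Abca4KO and 215.0 ± 34.9 in WT, close to Cers2 (218.6 ± 16.4 and 216.9 ± 8.63). Cers5 was lower in CPM, at 90.7 ± 2.81 and 88.4 ± 2.50 in the same order (SD, n = 3 each). Cers6 and the neuronal Cers1 took 3.499 ± 0.363% and 2.85 ± 0.503% in Abca4KO, and 4.04 ± 1.30% and 3.38 ± 0.697% in WT (SD, n = 3 each). Cers3, which skin and testis use for ultra-long chains, had no more than 1.02 CPM in any library. The counts of Cers1 and Cers2 overlap those of Upf1 and Setdb1 on the opposite strand and are uncertain to that extent.

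**Figure D4:**
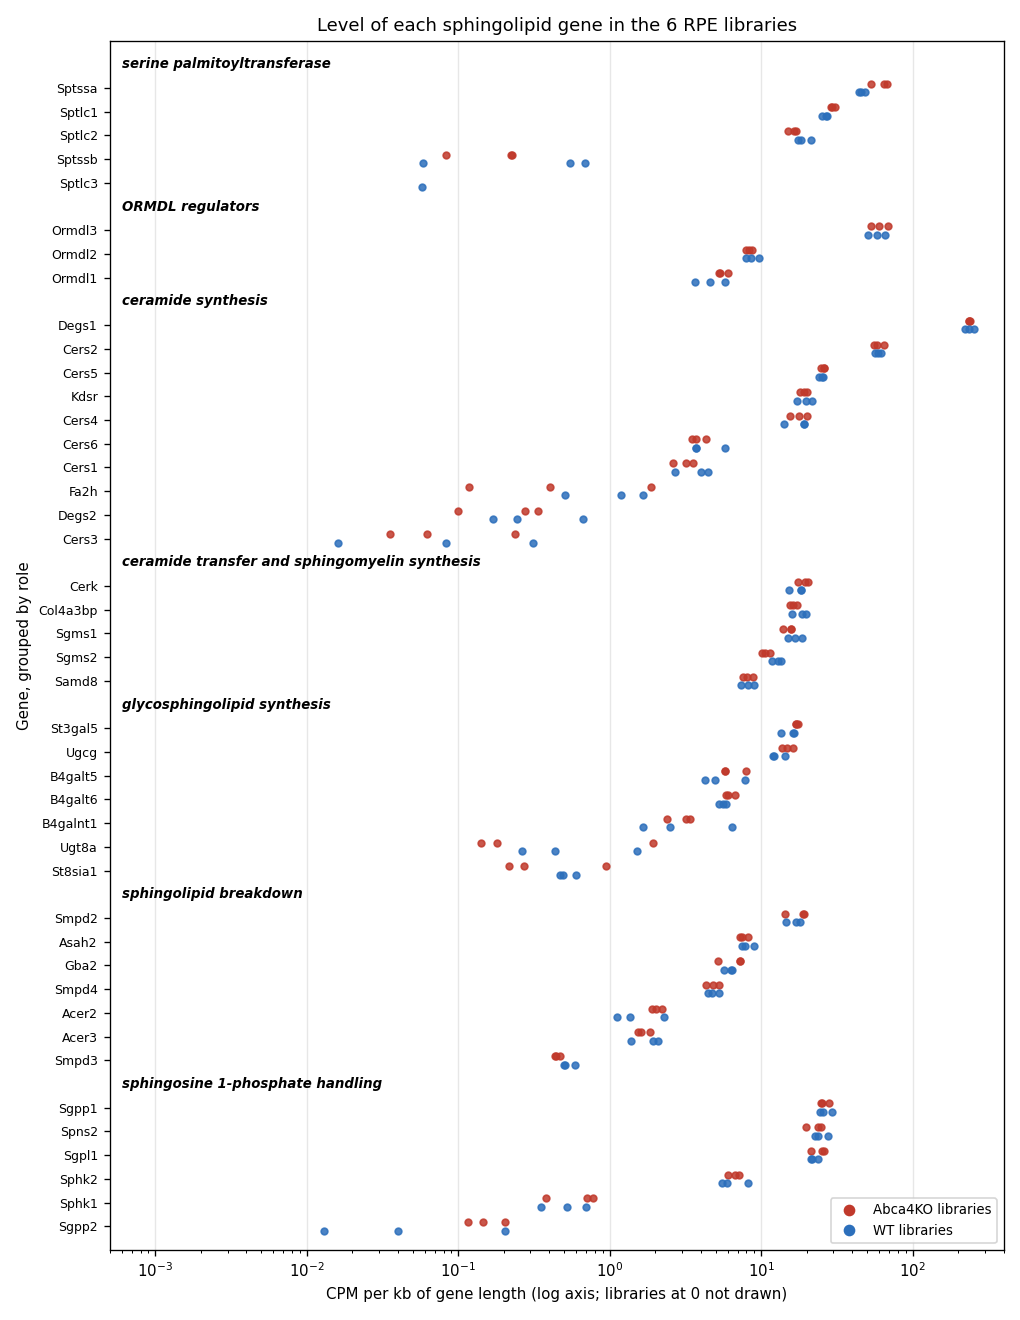
Level of each of the 43 genes in CPM per kb of gene length (log x axis) in the Abca4KO and WT libraries, grouped by role and ordered by level. Degs1 stands above all others, at 237.5 CPM per kb on average, and the genotypes overlap for most genes; libraries at 0 (Sptlc3 only) are not drawn.

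Ceramide leaves the endoplasmic reticulum through the transfer protein CERT, encoded by Col4a3bp, and is made into sphingomyelin by Sgms1 at the Golgi and Sgms2 at the plasma membrane. Sgms2 measured 71.0, 62.7 and 65.8 CPM in Abca4KO, against 80.2, 73.1 and 84.4 CPM in WT. Every Abca4KO library lay below every WT library, with Abca4KO 1 and WT 2 close together. On the log2 scale the difference was -0.25 (SE 0.09; unadjusted p = 0.0243, adjusted p = 0.677 in edgeR). Sgms1 averaged 156.1 ± 10.99 CPM in Abca4KO and 173.1 ± 19.2 CPM in WT, and Col4a3bp averaged 134.3 ± 7.09 CPM in Abca4KO and 149.5 ± 15.4 CPM in WT (SD, n = 3 each). Both were lower on average in Abca4KO, with overlapping libraries.

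The ratio of Sgms2 to Sgms1 per kb was 0.726, 0.723 and 0.668 in Abca4KO, and 0.768, 0.785 and 0.726 in WT, a log2 difference of -0.11. The genotypes were adjacent without overlap, which gave an exact 2-sided permutation p of 0.1, the smallest that 3 against 3 libraries allow. Adjusted over the 6 ratios tested this way, the p was 0.6, and the other 5 ratios (Sptssb/Sptssa, Cers5/Cers6, B4galt6/B4galt5, Sphk2/Sphk1 and Sgpp2/Sgpp1) overlapped between the genotypes with exact permutation p-values of 0.3 to 0.8. Samd8, which makes the related ceramide phosphoethanolamine, averaged 62.5 ± 4.78 CPM in Abca4KO and 62.6 ± 6.26 CPM in WT (SD, n = 3 each). Cerk, the ceramide kinase, measured 84.3, 94.0 and 98.8 CPM in Abca4KO, against 88.2, 73.8 and 87.5 CPM in WT. Its groups overlapped (log2 fold change 0.15, SE 0.10, adjusted p = 0.812 in edgeR).

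Glucosylceramide is made by Ugcg, lactosylceramide by B4galt5 and B4galt6, and the first ganglioside, GM3, by St3gal5. St3gal5 measured 46.2, 44.7 and 44.3 CPM in Abca4KO, against 35.2, 42.7 and 43.1 CPM in WT. The groups did not overlap, but WT 1 alone made most of the difference (log2 fold change 0.16, SE 0.10, adjusted p = 0.807 in edgeR; 0.07 without WT 1). Ugcg averaged 77.97 ± 6.05 CPM in Abca4KO and 67.1 ± 6.75 CPM in WT (SD, n = 3 each, overlapping). B4galt6 averaged 35.98 ± 2.90 CPM in Abca4KO and 32.4 ± 1.87 CPM in WT, and B4galt5 averaged 27.9 ± 5.47 and 24.5 ± 8.16 CPM in the same order (SD, n = 3 each). In this role 5 of 7 members had positive log2 fold changes (median 0.15), and 0 passed in edgeR.

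The remaining glycolipid genes overlapped between the genotypes and varied several-fold between single libraries. St8sia1, which makes the ganglioside GD3, measured 8.78, 2.01 and 2.56 CPM in Abca4KO, against 4.61, 4.40 and 5.61 CPM in WT. Its highest library, Abca4KO 1, was also the highest in rod markers. B4galnt1, which leads to the complex gangliosides of neurons, measured 8.22, 11.1 and 11.7 CPM in Abca4KO, against 8.69, 22.2 and 5.72 CPM in WT. It was highest in WT 2, the library with the interferon response genes.

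Ugt8a and Fa2h make galactosylceramide and its hydroxylated form, lipids typical of myelin. Ugt8a measured 0.812, 8.72 and 0.639 CPM in Abca4KO, against 1.204, 1.99 and 6.86 CPM in WT, and Fa2h 0.355, 5.68 and 1.22 CPM in Abca4KO, against 1.52, 3.597 and 5.01 CPM in WT. Summed markers of myelinating glia (10 genes, none at 0 in any library) were 599, 1530 and 449 CPM in Abca4KO, against 529, 893 and 1298 CPM in WT. Abca4KO 2 and WT 3 were the highest libraries, in this order, for both genes and for the marker sum. The part of admixed myelinated tissue in these values was not tested.

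Degs2, a relative of Degs1 known from skin and gut, had no more than 1.72 CPM in any library, and its count overlaps that of Evl. It was highest in WT 2, as was Cers3. Summed surface epithelium markers (12 genes, among them Krt5 with 199 CPM in WT 2) were also highest there, at 626 CPM against 121 to 267 CPM in the other libraries. Krt14, Krt12, Krt16, Trp63, Dsg1a and Sprr1a of that list were at 0 in at least 1 library. The part of admixed surface epithelium was not tested.

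**Figure D5:**
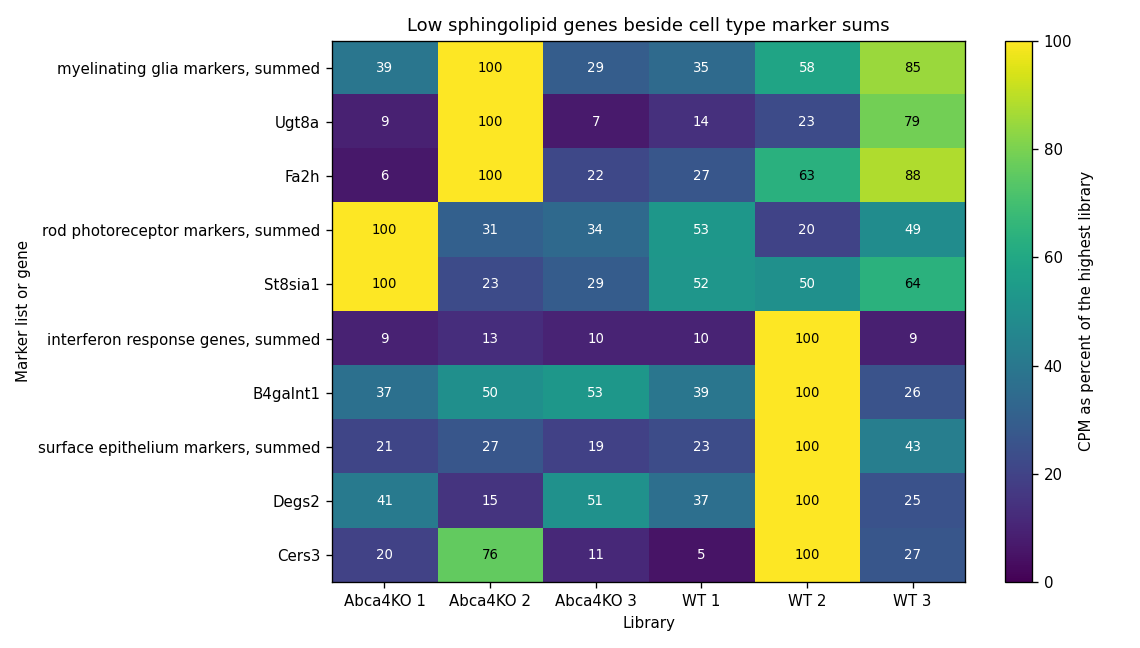
CPM as a percent of the highest library for low or variable genes and for summed marker lists, with Abca4KO libraries left and WT libraries right. Ugt8a and Fa2h peak in Abca4KO 2 and WT 3 with the myelinating glia sum, St8sia1 in Abca4KO 1 with the rod sum, and B4galnt1, Degs2 and Cers3 in WT 2.

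Of the 7 enzymes that break sphingolipids down outside the lysosome, 3 were positive (median log2 fold change -0.01), and levels per kb ran between percentile 11.9 (Smpd3) and percentile 83.5 (Smpd2) of all tested genes. Smpd2, a neutral sphingomyelinase, measured 84.5, 63.9 and 85.4 CPM in Abca4KO, against 75.7, 64.9 and 81.1 CPM in WT, with full overlap (log2 fold change 0.08, SE 0.14, adjusted p = 0.939 in edgeR). Smpd3, a neutral sphingomyelinase best known from brain and bone, measured 2.28, 2.32 and 2.44 CPM in Abca4KO, against 3.09, 2.63 and 2.67 CPM in WT. The groups did not overlap, though each value rested on 42 to 59 counts (log2 fold change -0.25, SE 0.27, adjusted p = 0.887 in edgeR). Smpd2 overlaps Mical1 and Smpd3 overlaps Prmt7 on the opposite strand, so both counts are uncertain. Smpd4 averaged 43.4 ± 4.15 CPM in Abca4KO and 43.6 ± 3.98 CPM in WT, and Gba2, the non-lysosomal glucosylceramidase, averaged 29.4 ± 5.33 CPM in Abca4KO and 27.5 ± 1.76 CPM in WT (SD, n = 3 each). Gba2 overlaps Creb3 and Rgp1 on the opposite strand, both with more counts, and is uncertain.

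Among the ceramidases, the neutral enzyme gene Asah2 led per kb, with 67.3 ± 2.73% of the summed level of Asah2, Acer2 and Acer3 in Abca4KO and 70.5 ± 7.08% in WT (SD, n = 3 each). Acer2, the alkaline ceramidase of the Golgi, measured 13.5, 14.4 and 15.9 CPM in Abca4KO, against 9.69, 16.3 and 8.002 CPM in WT. WT 2 was the highest of the 6 libraries for Acer2, and the other 2 WT libraries were the lowest. Acer3 averaged 25.5 ± 2.36 CPM in Abca4KO and 27.7 ± 5.63 CPM in WT (SD, n = 3 each).

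Sphingosine 1-phosphate is made by sphingosine kinases, recycled by phosphatases, cleaved irreversibly by the lyase Sgpl1 and exported by Spns2. Sgpp1, Spns2 and Sgpl1 stood above both kinases per kb in every library. Sgpp1, the phosphatase, measured 159.6, 141.8 and 139.8 CPM in Abca4KO, against 145.5, 137.4 and 166.0 CPM in WT, with overlap (log2 fold change -0.02, SE 0.10, adjusted p = 0.978 in edgeR). Per kb, Sgpp1 averaged 26.0 ± 1.93 CPM in Abca4KO and 26.5 ± 2.61 CPM in WT, Spns2 22.9 ± 2.60 and 24.8 ± 2.63 CPM, and Sgpl1 24.3 ± 2.53 and 22.3 ± 1.41 CPM in the same order (SD, n = 3 each). The levels of these 3 genes did not differ beyond their spread.

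Sphk2, the kinase of nucleus and mitochondria, averaged 6.64 ± 0.573 CPM per kb in Abca4KO and 6.57 ± 1.46 in WT, and Sphk1, the cytosolic kinase, 0.622 ± 0.211 and 0.526 ± 0.172 CPM per kb (SD, n = 3 each). Sphk2 counts overlap those of Dbp and Rpl18 on the opposite strand, which are both far more numerous, so this order is uncertain. Spns2 overlaps Mybbp1a and is uncertain to a lesser extent. Sgpp2 had 16, 9 and 10 counts in Abca4KO and 1, 3 and 15 counts in WT, and it overlaps the much more abundant Farsb.

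Levels of most members varied little over the 6 libraries. The highest library was under 1.5 times the lowest in 26 of 40 tested members (65.0%), against 47.6% of all tested genes. It was over 3 times the lowest in 6 members (Degs2, Fa2h, Ugt8a, St8sia1, B4galnt1 and Sgpp2), and in each of these the genotypes overlapped. Per kb, 29 of the 40 stood above the median of all tested genes, and Sptlc1, Sptssa, Ormdl3, Cers2 and Degs1 were at or above percentile 90.

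Other genes of sphingolipid metabolism were taken from 4 lists, and 0 of their 48 tested genes passed in edgeR. Of 9 tested receptors and carriers of sphingosine 1-phosphate, 5 were positive (median log2 fold change 0.04). An unadjusted p under 0.05 in edgeR was found for 2 of the 9, and for 7.02% of all tested genes. The receptor gene S1pr2 measured 15.8, 18.9 and 21.3 CPM in Abca4KO, against 14.8, 13.8 and 9.96 CPM in WT, without overlap (log2 fold change 0.54, SE 0.19, adjusted p = 0.679). S1pr5, known from natural killer cells and oligodendrocytes, measured 0.863, 2.58 and 2.50 CPM in Abca4KO, against 2.30, 12.3 and 5.06 CPM in WT, highest in WT 2 (adjusted p = 0.700). Plpp2, a lipid phosphate phosphatase gene, averaged 26.8 ± 2.40 CPM in Abca4KO and 24.1 ± 1.80 CPM in WT (SD, n = 3 each).

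Of 11 tested genes of fatty acid elongation, which supplies the long acyl chains of ceramide, 6 were positive (median 0.02) and 0 had an unadjusted p under 0.05 in edgeR. Tecr, the reductase of the last elongation step, measured 184.6, 183.5 and 181.3 CPM in Abca4KO, against 166.0, 165.4 and 165.2 CPM in WT. Its groups lay clearly apart and each within a narrow range, but the difference was small (log2 fold change 0.15, SE 0.06, adjusted p = 0.712 in edgeR). Hsd17b12 averaged 181.4 ± 9.84 CPM in Abca4KO and 164.7 ± 12.8 CPM in WT, and the elongase gene Elovl1 averaged 199.6 ± 6.51 and 218.7 ± 19.1 CPM in the same order (SD, n = 3 each).

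Of 15 further enzymes and transfer proteins, 7 were positive (median -0.01). Aldh3a2, which oxidises the fatty aldehyde left by the lyase, measured 80.6, 73.1 and 79.4 CPM in Abca4KO, against 95.03, 82.7 and 88.5 CPM in WT, without overlap (log2 fold change -0.19, SE 0.08, adjusted p = 0.713 in edgeR). St8sia5 averaged 1.51 ± 0.0382 CPM in Abca4KO and 0.821 ± 0.359 CPM in WT, and the transfer protein gene Plekha8 averaged 21.4 ± 1.11 and 18.9 ± 0.697 CPM in the same order (SD, n = 3 each).

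Of 13 genes that break sphingolipids down inside the lysosome, 11 had a log2 fold change above 0 (median 0.12), where 47.8% of all tested genes did. In edgeR 0 of the 13 passed. An unadjusted p under 0.05 in edgeR was found for 4 of the 13, all higher in Abca4KO, and for 7.02% of all tested genes (3.15% higher). Neu1, a sialidase, measured 84.6, 97.7 and 99.1 CPM in Abca4KO, against 80.5, 77.7 and 81.2 CPM in WT, without overlap (log2 fold change 0.23, SE 0.09, adjusted p = 0.691 in edgeR). Gla, the alpha-galactosidase, averaged 51.45 ± 7.04 CPM in Abca4KO and 42.002 ± 2.63 CPM in WT (SD, n = 3 each), with overlapping libraries.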

How the data were processed

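Per the labels' protocols, isolation used an RNAqueous-Micro kit, and 1 µg of RNA entered NEBNext Ultra library preparation. The authors deposited raw read counts per gene, not normalized, with gene symbols, coordinates and a gene length in bases. STAR, HTSeq and mm10 are named in the submitters' processing notes; versions, annotation and strand use are not given in the sources used here, so reads of overlapping genes on opposite strands cannot be told apart. Levels per kb divide by the deposited gene length.

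Genes were filtered with filterByExpr (minimum count 10), scaled by TMM and compared with edgeR 4.0.16 (R 4.3.3), glmQLFTest, all 6 libraries, no covariate, 2-sided, with Benjamini-Hochberg adjustment over 17340 genes and a threshold of 0.05. Fold changes are Abca4KO minus WT; intervals use the quasi-likelihood standard error. Ratios add 0.5 counts. Replicates were separate mice. All pairs of libraries differed beyond counting noise (chi-square per degree of freedom at least 13.6). The floor of 3 counts covers counting error only, since reads carry no molecular identifiers. The procedure was tested on simulated data.

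The members, lists and tests were chosen with earlier results of these data known. Values in every library were given for members with an unadjusted p under 0.05, members whose genotypes did not overlap and the highest member per kb of each role, and the 3 genes of each pathway list with the smallest p were named, except 1 item that is not reported here. Further members were given in full after their values were seen. Alternatives were other scalings and filters, DESeq2 1.42.0, limma-voom (limma 3.58.1), a replicate block and each library left out. Overlaps were read from the deposited coordinates. Transcripts of GENCODE M21 were searched with BLAST 2.17.0 for copies (at least 95% identity over 200 bases).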

Additional observations from a re-analysis of the deposited data

How the results depend on the processing

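No setting called any member: the count was 0 in all 15 alternative fits, and the median log2 fold change of the members stayed between -0.04 and 0.05. The count over all genes, 8 in the reported fit, was 19 without a filter on low counts, 31 in limma-voom with sample weights, 114 in DESeq2 and 3 to 11 when single libraries were left out (3 without Abca4KO 2, 3 without Abca4KO 3, 4 without WT 1). Members whose genotypes did not overlap numbered 6 to 14 when single libraries were left out, where fewer libraries overlap less by construction. The number was 11 without Abca4KO 1 (26.2% of those tested, against 25.6% of all genes), 12 without Abca4KO 2 (29.3%, against 20.2%) and 7 without Abca4KO 3 (16.7%, against 20.1%). It was 6 without WT 1 (14.6%, against 21.3%), 14 without WT 2 (34.1%, against 28%) and 11 without WT 3 (26.8%, against 21.9%). Without WT 2 and Abca4KO 1 together, a setting chosen after the data were seen, 190 genes were called over all and 26 members did not overlap (63.4%, against 48.2% of all genes). Sptssa, Sptlc1, Sptlc2, Sgms2, St3gal5, Smpd3 and Cerk kept their direction in every fit. The lowest adjusted p of Sptssa was 0.0594, in the edgeR fit without WT 2 and Abca4KO 1 together, the setting chosen after the data were seen. In the other fits the adjusted p of Sptssa ran from 0.0942 (limma-voom with sample weights) to 0.981 (edgeR without Abca4KO 2). Directions were followed only for members with an unadjusted p under 0.05, members without overlap and the highest member per kb of each role. Among these they turned only for Degs1, Ormdl3, Smpd2 and Sgpp1, whose log2 fold changes were near 0, and the cause was not tested. The other members were not followed in this way. Degs1 was -0.0011 with the filter of at least 1 CPM in 3 libraries, -0.028 without WT 2 and Abca4KO 1, and -0.044 to 0.062 with single libraries left out. Ormdl3 was -0.041 without those 2 libraries and -0.048 to 0.15 with single ones left out, Smpd2 was -0.084 and -0.0085 to 0.20, and Sgpp1 was -0.087 to 0.062 with single ones left out. The planned ratio of Sptlc3 to Sptlc2 was not run, since Sptlc3 had 0 counts in 5 libraries. The other 6 ratios moved by less than the spread between libraries under each setting tried.

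Replicate numbers did not pair the libraries: deviations of same-numbered libraries correlated at 0.22, 0.38 and -0.10, and Abca4KO 1 correlated best with WT 3. With the replicate block, 9 genes and 0 members were called. Depth limits Sptlc3, Sptssb, Cers3, Degs2 and Sgpp2, whose libraries held few counts.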
